A study of Saccharomyces cerevisiae with 4 samples.

Results

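The 36 genes of *Saccharomyces cerevisiae* whose symbol in the platform annotation is ATG followed by digits were compared between a strain lacking *CCW12*, which encodes an abundant mannoprotein of the cell wall, and its wild type. Macroautophagy encloses cytoplasm in a double-membrane autophagosome that fuses with the vacuole, the degradative compartment of yeast. The Atg1 kinase complex starts the process at the phagophore assembly site, a phosphatidylinositol 3-kinase marks the membrane, vesicles carrying Atg9p supply lipid, and ubiquitin-like conjugation attaches Atg8p to the growing membrane. Receptors hand selected cargo to Atg8p, and in well-fed cells the cytoplasm-to-vacuole targeting (Cvt) pathway uses the same machinery to deliver vacuolar hydrolases. The 36 genes were taken from 5656 genes with at least 1 probe set of their own (naming no other gene), each represented by the probe set that was brightest over all 4 arrays. Of the 36, 34 had 1 such probe set, while *ATG15* and *ATG19* had several. All 36 were found by their identifiers in the RefSeq gene table of the R64 assembly, on 13 chromosomes. Of these genes, 15 lay under the 25th percentile of mean log2 signal and 21 were tested.

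Both strains were haploid and MATα. SEY6210, the wild type, carries mutant alleles of *LYS2*, *TRP1*, *HIS3*, *URA3* and *LEU2* and a deletion in *SUC2*, and MEY12A (*ccw12*Δ) is the same strain with *CCW12* disrupted by *URA3*. A single strain stood for the deletion. Cells were grown in YPD, a rich glucose medium, with adenine to an OD600 of 1, and 2 arrays per strain each received biotin-labelled cRNA (5 µg of starting RNA, pooled from 3 preparations). P-values from limma therefore measure the spread between such pools.

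The *CCW12* signal was 24314 and 24118 in the wild type and 4260 and 3919 in *ccw12*Δ. For wild type replicate 2 the sample description names SEY6211, a MATa strain, whereas its title and strain field name SEY6210. The α-factor gene *MF(ALPHA)1* had signals between 9040 and 11687 on all 4 arrays, and the MATa receptor gene *STE2* lay under the filter level on all of them. Of the MATα markers 4 of 4 passed the filter, and of the MATa markers 1 of 6. Wild type replicate 1 stood apart from the other arrays. Its ratio of 3' to 5' probe signal lay between 2.99 and 9.82 over 3 control genes, beside 1.38 to 3.69 on the other arrays. The wild-type arrays differed more from each other (SD of the log2 difference 0.63 over all genes tested) than the *ccw12*Δ arrays (SD 0.40). The same was seen in the tested *ATG* genes, with a median difference of 0.50 on the log2 scale between the wild-type arrays and of 0.20 between the *ccw12*Δ arrays. The part of RNA quality in the strain differences was not tested. Log2 fold changes without 1 array are given beside several genes. Such a fit leaves 1 strain with a single array, so that only effect sizes are given for it.

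Among the 21 tested *ATG* genes, 4 rose in *ccw12*Δ (*ATG36*, *ATG19*, *ATG45* and *ATG32*), none fell and 17 did not pass limma at an adjusted p under 0.05. Over all 4532 genes tested, 5.30% were called higher and 0.596% lower. At an unadjusted p under 0.05 from limma, 10 *ATG* genes were higher and 0 lower, beside 18.1% and 3.95% of all genes. The genes that rose encode receptors or adaptors that bring a chosen cargo to the autophagosome. Of the 4, 3 lie on chromosomes IX and X, which together with chromosome II had the highest median log2 fold changes of all chromosomes. On these 3 chromosomes 25.4% of all tested genes were called higher, beside 1.09% on the other chromosomes. On both *ccw12*Δ arrays 14 of the 21 *ATG* genes were above both wild-type arrays, and for the other 7 the strains overlapped. Over all genes tested, 37.8% were above and 15.5% below in this sense. The mean ratio of *ccw12*Δ to wild type was at least 2-fold with all 4 ratios in 1 direction for 8 *ATG* genes, all of them higher, beside 10.4% of all genes higher and 2.03% lower by this fold rule. With arrays centred on their medians 43 genes were called higher and 21 lower over the whole table, and with chromosome-centred arrays 11 and 16, in place of 240 and 27. No *ATG* gene was called in these settings. The median log2 fold change of the 21 genes was 0.96, with a range from -0.27 to 1.71, and that of all genes tested was 0.18. Signals come from whole cultures, so that more transcript per cell and more cells expressing a gene cannot be told apart.

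**Figure D1:**
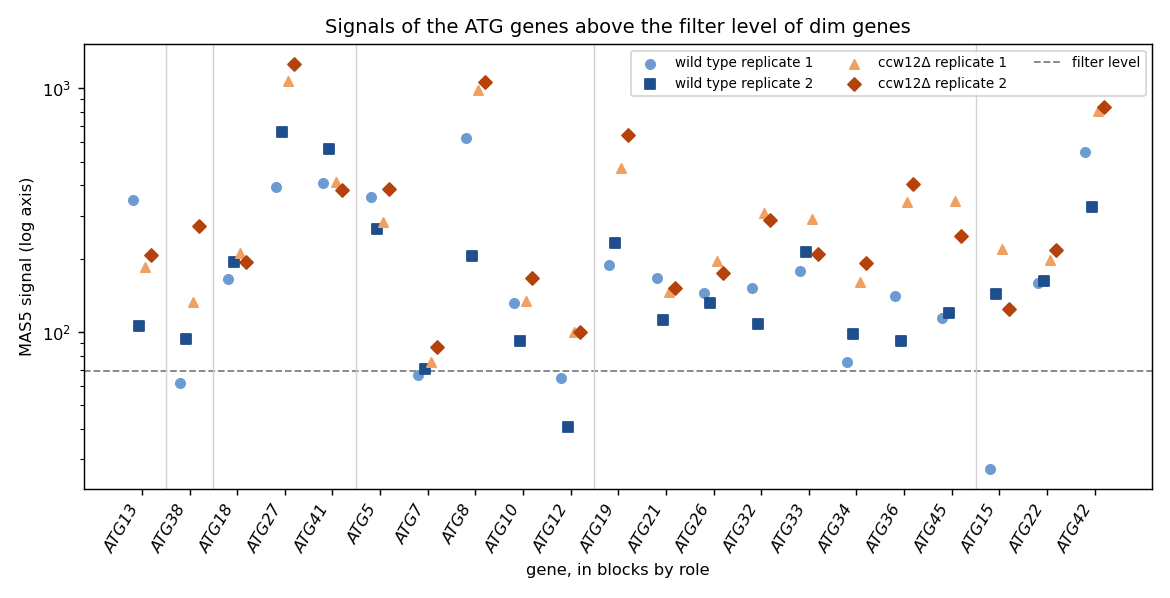
Signals of the 21 tested *ATG* genes on each array, on a log axis, in blocks by the role of the protein (from left to right Atg1 kinase complex, PI 3-kinase complex, Atg9p cycling, conjugation, selective autophagy, vacuolar breakdown). Each point is 1 array and the dashed line is the filter level, a signal of 69.0. The points of *ATG19*, *ATG32*, *ATG36* and *ATG45* separate by strain, whereas those of *ATG13* and *ATG15* differ most between the wild-type arrays.

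The cargo receptors and other factors of selective autophagy held all 4 genes that rose, out of 8 tested, beside 5.30% of all genes called higher. Of the 4, *ATG36* lies on chromosome X, where 31.2% of all tested genes were called higher. *ATG45* and *ATG32* lie on chromosome IX, where 21.2% were. *ATG36*, coding for the receptor of peroxisomes, had signals of 141 and 91.6 in the wild type and of 340 and 406 in *ccw12*Δ. The 4 ratios lay between 2.41 and 4.44, and the log2 fold change was 1.71 (SE, the standard error, 0.31, limma adjusted p = 0.0252), the highest of the tested *ATG* genes. *ATG19*, coding for the receptor of the Cvt cargo aminopeptidase I, had signals of 188 and 231 in the wild type and of 473 and 641 in *ccw12*Δ, so that every ratio was above 2-fold. Its log2 fold change was 1.40 (SE 0.30, limma adjusted p = 0.0343). *ATG19* lies on chromosome XV, where the median of all tested genes was 0.08, and it was the single gene outside chromosomes II, IX and X among those that rose. A second, much dimmer probe set of *ATG19* went the other way, with signals of 20.0 and 25.4 in the wild type and of 3.1 and 17.9 in *ccw12*Δ, all under the filter level.

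*ATG45* and *ATG32* both lie on chromosome IX. *ATG45*, coding for a receptor of glycogen, had signals of 114 and 120.1 in the wild type and of 345 and 248 in *ccw12*Δ. Its log2 fold change was 1.32 (SE 0.29, limma adjusted p = 0.0385). *ATG32*, coding for the mitophagy receptor on the mitochondrial outer membrane, had signals of 152 and 108 beside 307 and 289. The log2 fold change of 1.22 (SE 0.30, limma adjusted p = 0.0491) put it just inside the threshold. *ATG34*, coding for a receptor of α-mannosidase that is a paralog of Atg19p, lies next to *ATG19* on chromosome XV. Its signals were 75.0 and 97.7 in the wild type and 160 and 192 in *ccw12*Δ. The strains did not overlap, yet its log2 fold change of 1.03 (SE 0.31, limma adjusted p = 0.0847) did not pass. The log2 fold change was 1.22 without wild type replicate 2 and 0.84 without wild type replicate 1.

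The remaining tested genes of this group had small differences. *ATG26* encodes a sterol glucosyltransferase that *S. cerevisiae* does not need for autophagy, *ATG33* a mitochondrial protein of mitophagy, and *ATG21* a phosphoinositide-binding protein of the Cvt pathway. Their log2 fold changes were 0.42, 0.34 and 0.12, with adjusted p-values from limma between 0.429 and 0.853. For *ATG33* and *ATG21* the arrays of the strains overlapped.
The calls of the genes that rose depended on single arrays. With either *ccw12*Δ array left out, not all 4 were called. With either wild-type array left out, many more of all genes were called, so that staying called there says little. Over the fits with 1 array left out, the log2 fold change ranged from 1.40 to 2.02 for *ATG36* and from 1.18 to 1.62 for *ATG19*. It ranged from 0.97 to 1.47 for *ATG32* and from 1.09 to 1.56 for *ATG45*. In these fits the strain with 1 array contributes nothing to the estimated spread and is assumed to vary like the other.

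In the ubiquitin-like conjugation systems no gene of 5 tested passed. *ATG8* encodes the ubiquitin-like protein that is joined to phosphatidylethanolamine on the autophagosomal membrane. Its signals were 622 and 206 in the wild type and 984 and 1063 in *ccw12*Δ. Both *ccw12*Δ signals were above both wild-type signals, but the wild-type arrays differed 3.02-fold and the ratios ranged from 1.58 to 5.16. The log2 fold change of 1.52 (SE 0.47, limma adjusted p = 0.0972) did not pass. It was 2.31 without wild type replicate 1 and 0.72 without wild type replicate 2. *ATG12*, coding for the ubiquitin-like protein that is attached to Atg5p, was dim in the wild type. It had signals of 64.9 and 40.8 there and of 100.3 and 100.4 in *ccw12*Δ, a difference of at least 1.45-fold against the filter level (adjusted p = 0.159 from limma). Its log2 fold change was 0.96, with 1.30 without wild type replicate 1 and 0.63 without wild type replicate 2. Both *ATG8* and *ATG12* lie on chromosome II.

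The enzymes of these systems showed little difference. *ATG7* encodes the E1-like enzyme shared by both systems and *ATG10* the E2-like enzyme of Atg12p. *ATG7* had signals of 66.7 and 70.7 in the wild type and of 75.3 and 86.4 in *ccw12*Δ. *ATG10* had signals of 131 and 91.6 beside 134 and 166. *ATG5*, whose product receives Atg12p, had signals of 358 and 265 in the wild type and of 281 and 388 in *ccw12*Δ, so that the strains overlapped. The log2 fold changes of *ATG7*, *ATG10* and *ATG5* were 0.23, 0.44 and 0.10, with adjusted p-values from limma between 0.465 and 0.881. Among the genes not tested, *ATG3* codes for the E2-like enzyme of Atg8p, *ATG4* for its processing protease and *ATG16* for the partner of Atg5p.

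Of the 6 genes of the Atg1 kinase complex and its scaffolds, 5 were too dim to be tested. The remaining gene, *ATG13*, encodes the regulatory subunit whose phosphorylation by TORC1 holds autophagy back in rich medium. *ATG13* had signals of 347 and 106 in the wild type and of 185 and 207 in *ccw12*Δ. Both *ccw12*Δ arrays lay between the wild-type arrays, with a log2 fold change of 0.03 (SE 0.49, limma adjusted p = 0.977). Without wild type replicate 2 it was -0.83, and without wild type replicate 1 it was 0.89, so that the wild-type array decided the direction. *ATG38*, coding for a subunit that links Vps15p and Vps34p with Atg14p and Vps30p in the autophagy-specific PI 3-kinase complex, had signals of 61.7 and 93.7 in the wild type and of 133 and 273 in *ccw12*Δ. Its log2 fold change was 1.33 (SE 0.41, limma adjusted p = 0.0923), and the *ccw12*Δ arrays differed 2.05-fold. The log2 fold change was 1.03 without wild type replicate 1 and 1.63 without wild type replicate 2. It was 1.85 without *ccw12*Δ replicate 1 and 0.81 without *ccw12*Δ replicate 2. *ATG38* lies on chromosome XII, where the median of all tested genes was 0.12.

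Of the genes for Atg9p traffic, 3 were tested and did not pass. *ATG27*, on chromosome X, encodes a membrane protein that cycles with Atg9p. Its signals were 394 and 662 in the wild type and 1068 and 1255 in *ccw12*Δ, with no overlap. The log2 fold change was 1.18 (SE 0.33, limma adjusted p = 0.0745). Without wild type replicate 1 it was 0.81, and without wild type replicate 2 it was 1.55. *ATG18*, coding for a phosphoinositide-binding protein that works with Atg2p, had signals of 165 and 194.4 beside 210.0 and 194.2, a log2 fold change of 0.17 (adjusted p = 0.757 from limma). *ATG41*, whose product binds Atg9p, was the tested *ATG* gene with a negative log2 fold change, -0.27 (adjusted p = 0.639 from limma). It had signals of 409 and 564 in the wild type and of 413 and 384 in *ccw12*Δ, so that the strains overlapped.

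The 3 genes for breakdown inside the vacuole were all tested and did not pass. *ATG42*, on chromosome II, encodes a vacuolar serine carboxypeptidase. Its signals were 549 and 326 in the wild type and 807 and 835 in *ccw12*Δ, a log2 fold change of 0.96 (SE 0.33, limma adjusted p = 0.132). The log2 fold change was 1.33 without wild type replicate 1 and 0.58 without wild type replicate 2. *ATG15* encodes the lipase that opens autophagic bodies. Its brightest probe set had signals of 27.4 and 143 in the wild type and of 219 and 124 in *ccw12*Δ. Wild type replicate 1 was low, while replicate 2 lay between the *ccw12*Δ arrays. The log2 fold change of 1.40 (SE 0.67, limma adjusted p = 0.271) became 0.21 without wild type replicate 1. It was 2.59 without wild type replicate 2 and 1.81 without *ccw12*Δ replicate 2. The other probe sets of *ATG15* had mean log2 ratios of 1.52 and 0.83, and wild type replicate 1 was the lowest array for each of the 3. *ATG22*, coding for a vacuolar exporter of amino acids, had signals of 159 and 161 in the wild type and of 198 and 217 in *ccw12*Δ. The strains did not overlap, and the log2 fold change was 0.37 (SE 0.27, limma adjusted p = 0.475).

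The differences were also set out by chromosome. The 7 tested members on chromosomes II, IX and X had log2 fold changes between 0.96 and 1.71, with a median of 1.22, and for all 7 the strains did not overlap. The 783 tested genes of these chromosomes had a median of 0.97, and 83.5% of them were above the wild type on both *ccw12*Δ arrays. By the fold rule 5 of the 7 were higher, beside 47.6% of all tested genes there. The 14 tested members of the other chromosomes had a median of 0.35, beside 0.09 for the 3749 tested genes of those chromosomes. For 7 of the 14 the *ccw12*Δ arrays were above the wild type, beside 28.3% of all genes there, and 3 were higher by the fold rule (*ATG19*, *ATG34* and *ATG38*), beside 2.64% of all genes there. To set each member beside its surroundings, the 5 tested genes on each side of it were taken. On chromosomes II, IX and X, the medians of the 10 neighbours were 0.97 for *ATG8*, 0.80 for *ATG42*, 1.06 for *ATG12*, 1.02 for *ATG45*, 0.99 for *ATG32*, 1.21 for *ATG36* and 1.09 for *ATG27*. Of these 7 members, 6 were above the median of their neighbours. *ATG36* was above 9 of its 10 neighbours. Elsewhere, 10 of the 14 members were above the median of their neighbours. *ATG15*, *ATG19* and *ATG38* were above all 10 of their neighbours, whose medians were 0.33, 0.25 and 0.16. *ATG34* was above 9 of 10, the exception being *ATG19*. At the other end, *ATG41* was above 1 of its 10 neighbours and *ATG18* above 3.

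**Figure D2:**
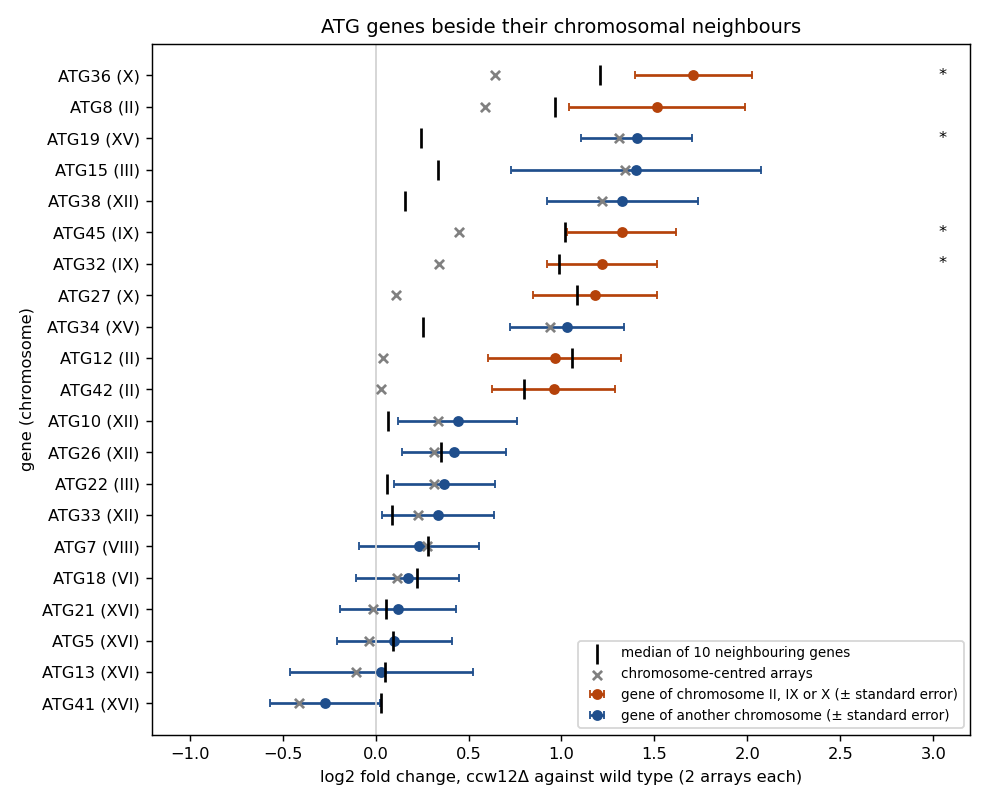
Log2 fold change of each tested *ATG* gene with its standard error (2 arrays per strain), with the chromosome in brackets. Vertical marks give the median log2 fold change of the 10 neighbouring tested genes, crosses the value with chromosome-centred arrays, and asterisks the genes that passed limma. The crosses of the genes on chromosomes II, IX and X lie between 0.03 and 0.64. Those of *ATG15*, *ATG19*, *ATG38* and *ATG34* lie between 0.94 and 1.34.

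For chromosome-centred arrays, each gene was first expressed relative to its wild-type mean, and the median of every chromosome was then taken off array by array. The median of the 7 members on chromosomes II, IX and X was then 0.34 and that of the 14 others 0.30, beside 0.00 for all genes tested. The log2 fold changes were 0.64 for *ATG36*, 0.59 for *ATG8*, 0.45 for *ATG45*, 0.34 for *ATG32*, 0.11 for *ATG27*, 0.04 for *ATG12* and 0.03 for *ATG42*. *ATG15* had 1.34, *ATG19* 1.31, *ATG38* 1.22 and *ATG34* 0.94, with adjusted p-values from limma of 0.440, 0.112, 0.318 and 0.254. For *ATG15* the strains overlapped before centring. No *ATG* gene was called in this setting, in which 0.596% of all genes were. An unadjusted p under 0.05 from limma was found for 3 of the 21, beside 575 of all 4532 genes tested. By the fold rule 2 of the 21 were higher, beside 2.32% of all genes.

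The 15 genes under the filter level had mean log2 signals under 6.11, which is a signal of 69.0. *ATG2* lay just outside the level and *ATG12* just inside it, with mean log2 signals of 6.11 and 6.17. In 9 of the 15 both strains were under the level on every array, so that no fold change is given for them. These are *ATG4*, *ATG9*, *ATG14*, *ATG16*, *ATG20*, *ATG23*, *ATG29*, *ATG31* and *ATG39*. *ATG9* encodes the lipid scramblase of the vesicles that seed the autophagosome and had signals of 29.1 and 28.0 in the wild type and of 40.6 and 47.0 in *ccw12*Δ. *ATG14*, on chromosome II, encodes the subunit that directs the PI 3-kinase to autophagy and had signals of 24.8 and 24.9 beside 32.0 and 50.1. *ATG16* had no signal above 2.2 on any array.

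The scaffold of starvation-induced autophagy is formed by Atg17p, Atg29p and Atg31p, and its 3 genes were too dim for a test. *ATG17* had signals of 38.3 and 21.8 in the wild type and of 47.6 and 137 in *ccw12*Δ. *ATG29* had 3.4 and 11.5 beside 14.6 and 44.7. *ATG31* had 45.7 and 33.7 in the wild type and 18.9 and 20.9 in *ccw12*Δ, and was the dim gene with both *ccw12*Δ arrays under both wild-type arrays. Of the other 14 dim genes, 8 had both *ccw12*Δ signals above the wild type and 6 overlapped. Over all 1124 genes under the level, 29.7% were above and 12.9% below in this sense, and these signals carry no test. *ATG11*, coding for the scaffold of selective autophagy, had signals of 61.6 and 82.2 in the wild type and of 130 and 13.4 in *ccw12*Δ, which puts 1 *ccw12*Δ array above and the other below the wild type. *ATG1*, coding for the kinase that starts autophagosome formation, had signals of 33.2 and 38.6 beside 76.2 and 65.9. *ATG2*, coding for the lipid transfer protein at the edge of the growing membrane, had 45.7 and 56.5 beside 104 and 84.1, or at least 1.36-fold higher against the filter level. *ATG40*, coding for a receptor for the endoplasmic reticulum, had signals of 48.5 and 49.2 beside 46.4 and 70.3, so that the strains overlapped. The count of *ATG* genes under the level differed between the arrays, with 19 of 36 on wild type replicate 1, 14 on wild type replicate 2, and 12 and 11 on the *ccw12*Δ arrays.

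**Figure D3:**
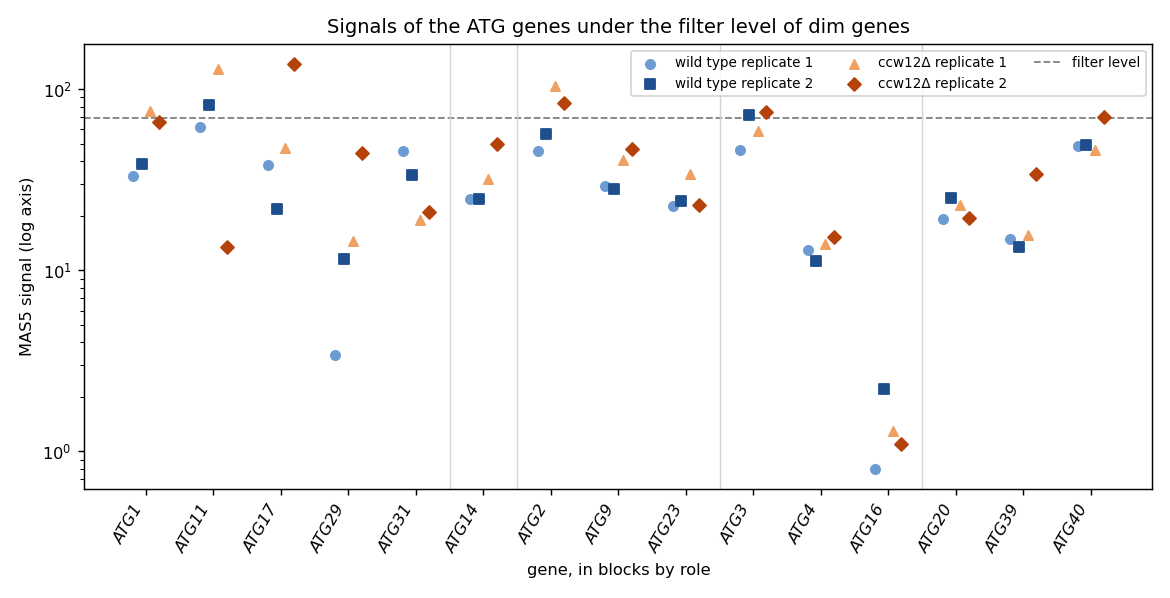
Signals of the 15 *ATG* genes under the filter level, on a log axis, in blocks by role (Atg1 kinase complex, PI 3-kinase complex, Atg9p cycling, conjugation, selective autophagy). Each point is 1 array and the dashed line is the filter level of 69.0. Most points lie under the line, and the 4 arrays of *ATG11*, *ATG17* and *ATG29* are spread widely.

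Other genes of autophagy, in 5 lists that were written from general knowledge with earlier results of these data known, numbered 51, of which 41 were tested, 3 rose and 38 did not pass limma, a share near the 5.30% called higher over all genes tested. The 3 are *VPS15*, *SLM4* and *IML1*, on chromosomes II and X (25.4% called higher on II, IX and X). *VPS15* encodes the kinase-like subunit that holds the PI 3-kinase Vps34p at the membrane. Its signals were 142 and 147 in the wild type and 373 and 460 in *ccw12*Δ (4 of 4 ratios above 2-fold), with a log2 fold change of 1.52 (SE 0.28, limma adjusted p = 0.0252). Its partners *VPS34* and *VPS30* (formerly an *ATG* symbol as well), on chromosomes XII and XVI, had log2 fold changes of 0.26 and 0.32 and did not pass. *SLM4*, a gene of the EGO complex that ties TORC1 to the vacuole, had 1.58 (SE 0.34, limma adjusted p = 0.0360), and *IML1*, coding for a subunit of the SEA complex that inhibits TORC1, had 1.60 (SE 0.34, limma adjusted p = 0.0340). *TOR1*, the TORC1 kinase gene on chromosome X, had 1.14 (adjusted p = 0.0628 from limma). With chromosome-centred arrays none of the 41 was called.

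In the lists without a call, the values of the extremes were as follows. Among 8 tested genes of tethering and fusion the log2 fold changes ran from 0.05 for *VAC8*, coding for a vacuolar armadillo-repeat protein of the Cvt pathway, to 0.97 for the SNARE gene *YKT6*. Among 6 vacuolar hydrolases and Cvt cargoes they ran from -0.28 for *APE1* to 1.14 for *AMS1*. *APE1* encodes the aminopeptidase I that the Atg19p receptor carries, and *AMS1* the α-mannosidase that Atg19p and Atg34p carry. *APE1* had signals of 731 and 344 in the wild type and of 359 and 472 in *ccw12*Δ, so that its strains overlapped, whereas *AMS1* had 82.5 and 70.5 beside 115 and 244 (adjusted p = 0.132 from limma). Among 12 kinases and transcription regulators they ran from -1.08 for *GAT1*, coding for a GATA activator of nitrogen-regulated genes, to 0.59 for *SIN3*. *GAT1* had signals of 843 and 299 in the wild type and of 192 and 293 in *ccw12*Δ (adjusted p = 0.223 from limma). *UME6*, whose product represses *ATG8* in growing cells, had 259 and 117 beside 104 and 108, with a log2 fold change of -0.72 (adjusted p = 0.336 from limma). For *GAT1* and *UME6* wild type replicate 1 was the array that stood highest. The median log2 fold changes of the 5 lists lay between 0.21 and 0.66.

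**Figure D4:**
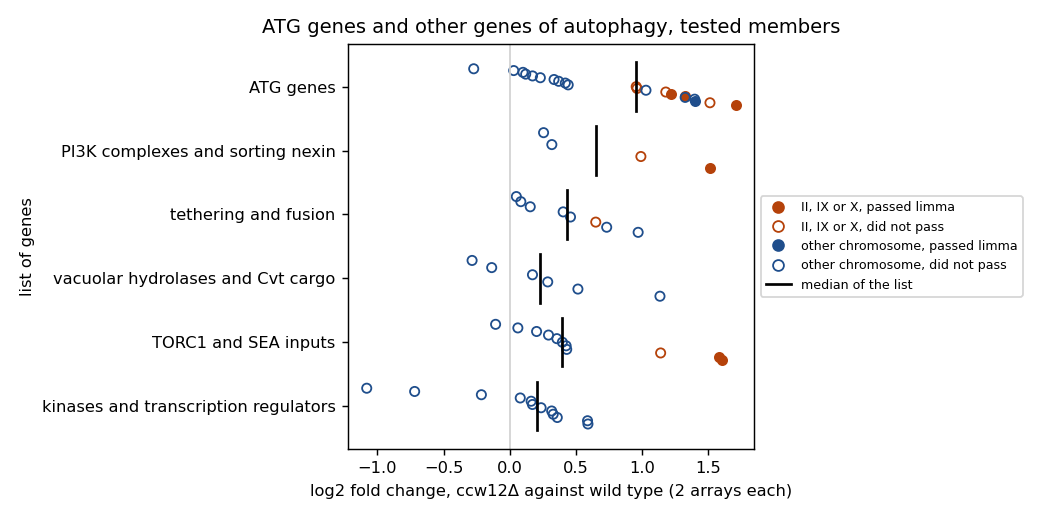
Log2 fold changes of the tested *ATG* genes and of 5 lists of other autophagy genes (2 arrays per strain), with 1 point per gene, spread vertically for legibility. Filled points passed limma, orange marks chromosomes II, IX and X, and the black bar is the median of a list, 0.96 for the *ATG* genes. Except for *ATG19*, every filled point is orange.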

How the data were processed

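The authors scanned 4 Affymetrix arrays (Yeast Genome S98, 1 colour), 2 for each strain, and converted them with GCOS to 1 linear intensity per probe set; the submitters' processing notes name MAS5. These deposited intensity values, scaled by the authors for each array to a target not given in the sources used here, were converted to log2 after 19 zero signals were raised to 0.1. Of 9335 probe sets, 60 are controls, 6504 name 1 gene, 328 several and 2443 none. The filter was the 25th percentile of mean log2 signal over the 6504 probe sets. Strains were compared over all 4532 genes that passed with limma 3.58.1 in R 4.3.3 (lmFit, eBayes with a trend, prior degrees of freedom 6.71) and Benjamini-Hochberg adjustment. The fold rule follows the study's methods without GCOS calls. Calculations were tested on simulated data. Every *ATG* gene was named. From the other lists, members that passed were named, or else the extremes; *VPS34*, *VPS30*, *TOR1* and *UME6* were added after their values were seen. Members, lists and tests were chosen with earlier results of these data known. Alternatives were other scalings, filters, an offset of 7.2, the mean over probe sets, eBayes without trend, a replicate block and each array left out. Array signals are not counts, and the number of arrays limits the precision. Figures were made in Python 3.11.15 with matplotlib 3.10.9.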

Additional observations from a re-analysis of the deposited data

How the results depend on the processing

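Beside the 4 *ATG* genes and 3 other autophagy genes called, quantile normalization gave 1 and 1, arrays centred on their medians 0 and 0, arrays centred on genes outside chromosomes II, IX and X 0 and 1, chromosome-centred arrays 0 and 0, and no filter 0 and 0. In the same order, 2.58%, 1.41%, 1.54%, 0.596% and 0.690% of all genes were called in these settings, beside 5.89% in the main fit. A filter at the 50th percentile left 2 *ATG* genes called of 10 tested, beside 6.18% of all genes. The mean over probe sets left 2 of 20, beside 5.56% of all genes, and *ATG19* was no longer tested there and gave no value. Without 1 array the counts ranged from 1 to 10 *ATG* genes, *ATG13* being called lower without wild type replicate 2, and from 0 to 14 others. Over all genes the calls ranged from 27 with chromosome-centred arrays (11 higher and 16 lower) to 1433 without wild type replicate 2, beside 267. The fit without wild type replicate 2 also gave the highest counts of *ATG* and other autophagy genes. Fits without 1 array rest 1 strain on a single array, so that their counts say nothing about autophagy genes in particular. Centring on medians gave 43 higher and 21 lower and moved the median of all genes from 0.18 to -0.07. The cause of these changes was not tested. Without a filter 5656 genes entered both the fit and the adjustment.

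Of 21 tested *ATG* genes, 8 were past the fold rule, beside 5 of 21 with arrays centred on their medians. It was 5 of the 10 tested with the filter at the 50th percentile, and 2 of 21 with chromosome-centred arrays. By this rule 10.4% of all genes were higher in the main setting and 2.32% with chromosome-centred arrays, and no share was taken in the others. The median log2 fold change of the tested *ATG* genes, 0.96, became 0.78 on quantile-normalized arrays, 0.71 with arrays centred on their medians, 0.31 with chromosome-centred arrays, 0.53 without a filter (36 genes) and 0.70 with the mean over probe sets. Without 1 array it lay between 0.58 and 0.96. Genes near 0 changed sign, although no alternative but the one named called them. After quantile normalization *ATG5* was at -0.11, *ATG13* at -0.21, *ATG18* at -0.065 and *ATG21* at -0.13. With arrays centred on their medians *ATG5* was at -0.15, *ATG7* at -0.017, *ATG13* at -0.22, *ATG18* at -0.076 and *ATG21* at -0.13. *ATG13* was at -0.066 with arrays centred on genes outside the 3 chromosomes, and with chromosome-centred arrays *ATG5* was at -0.037, *ATG13* at -0.11 and *ATG21* at -0.016. Without 1 array *ATG5* ranged from -0.13 to 0.33, *ATG13* from -0.83 to 0.89 and *ATG21* from -0.17 to 0.41.

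In alternatives with all 4 arrays, the adjusted p from limma ranged from 0.000101 to 0.439 for *ATG36* and from 0.00257 to 0.112 for *ATG19*. It ranged from 0.00381 to 0.577 for *ATG45* and from 0.00857 to 0.629 for *ATG32*. The lowest value of each gene came from the replicate block described below, a fit that called 13.8% of all genes. Each of these 4 genes kept a positive log2 fold change in all of its alternatives, as did genes that were not called, such as *ATG22* and *ATG26*. With the replicate number as a replicate block, 9 *ATG* genes and 6 others were called. Over all genes tested 13.8% were called in that fit, beside 5.89% in the main fit. The numbers share no stated day or batch, and deviations of same-numbered arrays correlated at -0.14 across genes. This correlation gives no sign of pairing but cannot decide it, because wild type replicate 1 stood apart from the other arrays. With the numbers crossed, a setting chosen after seeing the data, 9 and 7 were called, again beside 13.8% of all genes. Taking the percentile over genes, also chosen afterwards, put 2 more genes, *ATG7* and *ATG12*, under the level and left 4 called.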
